A study of Mus musculus with 24 samples.

Results

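The mitochondrial ribosome is built from RNA encoded in mitochondrial DNA and from proteins that are encoded in the nucleus, made in the cytosol and imported. It translates the few messages that mitochondrial DNA still carries, all of them subunits of the oxidative phosphorylation complexes, so muscle, which depends on respiration, needs it throughout life. The genes for its proteins are named Mrpl for the large subunit, which joins amino acids, and Mrps for the small subunit, which reads the message. All genes whose array symbol begins with Mrpl or Mrps and a digit were taken: 76 of the 16593 genes with a named probe. Of these, 69 had a probe with a detection p below 0.05 on at least 4 of the 24 arrays and were tested among 8945 genes in all. The other 7, Mrpl15, Mrpl19, Mrpl21, Mrpl32, Mrpl45, Mrps14 and Mrps36, had no probe detected on any array. Mrps36 is in any case known as a part of the 2-oxoglutarate dehydrogenase complex rather than of the ribosome. Mrpl39 and Mrpl57 were detected on 9 arrays each, and the remaining 67 tested members on all 24.

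Gastrocnemius muscle, a calf muscle, came from male mice, and RNA from each of the 24 samples was hybridised to an Illumina BeadChip, an array that reads labelled RNA as the brightness of a probe. Wild-type C57Bl/10ScSnJ mice, labelled as having no treatment, gave 4 arrays. Mice of the mdx strain, which lack dystrophin and serve as a model of Duchenne muscular dystrophy, gave 5 arrays in each of 4 groups. Of these groups, 2 received PBS and 2 received sActRIIB-Fc, and 1 of each pair also had 7 weeks of access to a wheel for voluntary running. The agent sActRIIB-Fc, the soluble ligand-binding part of the activin type IIB receptor fused to an antibody tail, captures myostatin and activins and was given intraperitoneally once a week at 5 mg/kg. Ages are labelled as 6 to 7 weeks for every mouse, which cannot be the age at the end of a 7-week treatment. Since wild-type mice are labelled as untreated and every mdx group was injected, genotype and injection cannot be told apart. The mdx mutation is also present in every cell of the body, not in muscle alone. The labels number the samples of a group as replicates and say no more, so p-values measure only the spread between these samples, which may be technical.

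On each array between 10404 and 11971 probes were detected. The 10 muscle fibre markers averaged between 14.28 and 14.60 on the normalised log2 scale, and the tissue matched its label on every array. Markers of liver cells, which a muscle sample should lack, differed between arrays. Of 15 such markers, 9 were tested, and 4 of those not tested, Alb, Fgb, Fabp1 and Tat, were detected on 0 arrays. Cyp2e1, 1 of the 9, was detected on all 24 arrays. The source of these transcripts was not tested. The mean of the 9 was 8.37, 11.37, 8.29 and 5.45 on the 4 wild-type arrays, and it lay between 5.26 and 8.06 in mdx PBS, 5.62 and 9.95 in mdx running, 5.34 and 7.12 in mdx sActRIIB-Fc, and 5.32 and 10.02 in mdx sActRIIB-Fc running. Wild type 4 was thus the only wild-type array with a low value. Results that rest on these arrays are given below with and without them.

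In mdx muscle injected with PBS, no mitochondrial ribosomal protein gene rose and 19 of the 69 fell relative to wild type. Over all tested genes, 19.3% were called higher and 18.5% lower at an adjusted p below 0.05. The median log2 change of the members was -0.19, against -0.05 for all tested genes, and 60 of the 69 had a negative change. The falls were small, the largest being 1.61-fold. Scaling the arrays to equal medians instead moved the calls over all genes to 2203 higher and 861 lower, and those among the members to 0 higher and 12 lower. Scaling to the medians of the probes detected on all arrays moved them the other way, to 1593 higher and 2038 lower over all genes and to 0 higher and 33 lower among the members. In bulk tissue, fewer cells of a type and less RNA per cell cannot be told apart, and markers of other cells moved in the same comparison. All 9 tested macrophage markers rose, by a median of 3.08 on the log2 scale, and all 6 fibroblast markers rose, by a median of 1.52. The 9 liver-cell markers had a median change of -2.46, with 1 called lower, and the 2 tested adipocyte markers one of -0.97, also with 1 called lower. Their part in the members' changes was not tested, apart from the liver-marker values given below. The 10 fibre markers had a median change of -0.002, and 1 of them fell.

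**Figure D1:**
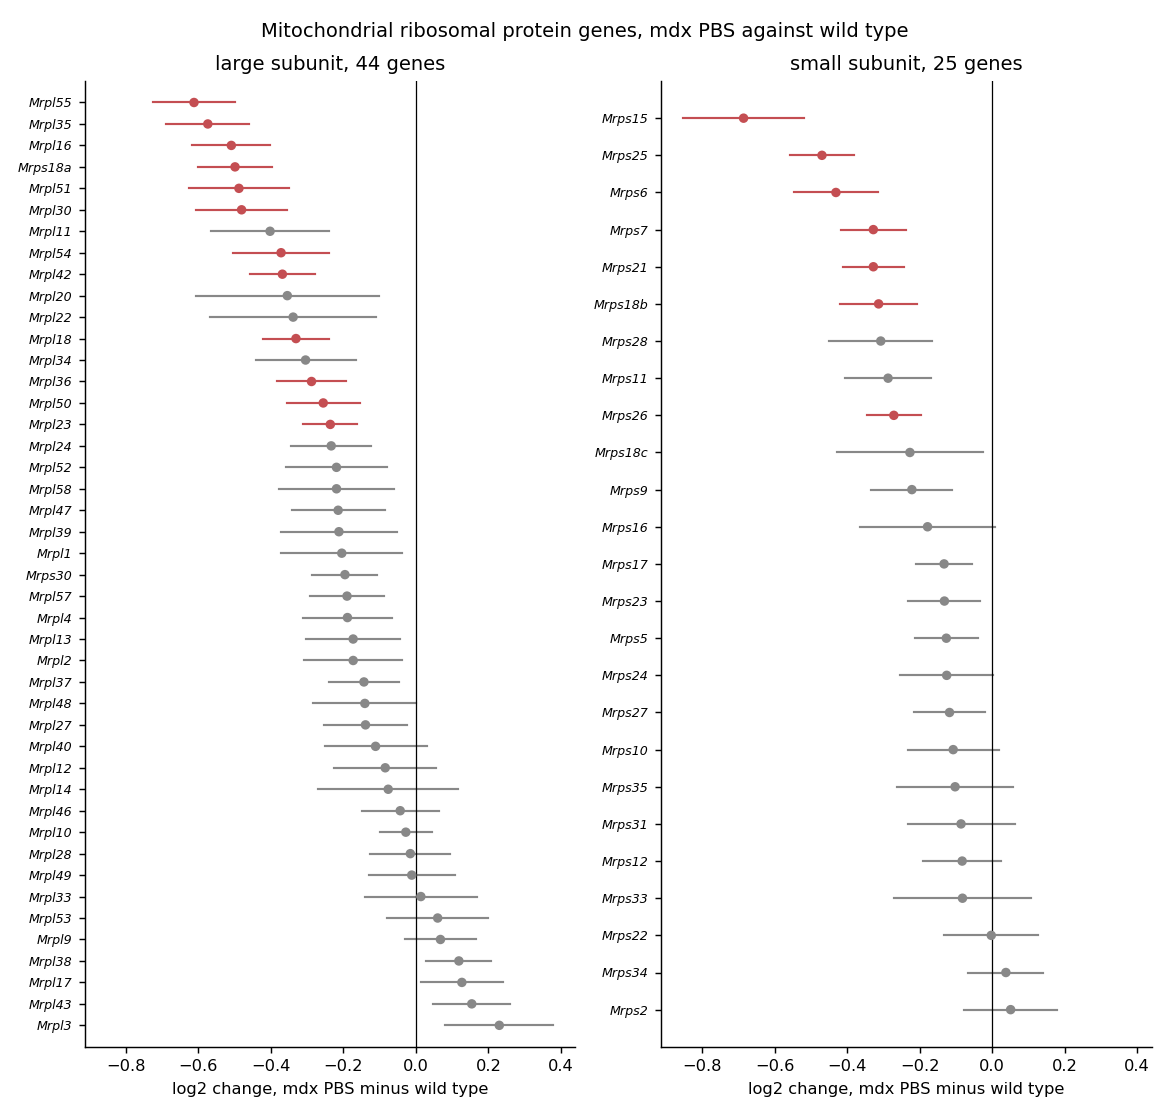
Log2 change of each of the 69 tested members in mdx PBS relative to wild type, with the large subunit on the left and the small subunit on the right; bars are standard errors of the model (4 and 5 arrays) and red marks an adjusted p below 0.05. The 19 called members lie between -0.69 (Mrps15) and -0.24 (Mrpl23), and no member to the right of 0 is red.

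In the large subunit, 12 of 44 members fell and the median change was -0.20. The largest fall was that of Mrpl55, a protein of bacterial ancestry. Its values were 10.49, 10.49, 10.49 and 10.06 in wild type and 9.71, 9.75, 9.85, 9.85 and 9.67 in mdx PBS. The groups did not overlap, although wild type 4 stood well below the other 3, and the log2 change was -0.61 (SE 0.11, adjusted p = 0.00017). Mrpl35, another relative of a bacterial protein, was at 7.29, 7.36, 7.15 and 7.25 in wild type and at 6.72, 6.84, 6.55, 6.63 and 6.71 in mdx PBS. No mdx PBS array reached a wild-type one, and the change was -0.57 (SE 0.11, adjusted p = 0.00035). Mrpl16, whose bacterial counterpart lies near the peptidyl transferase centre where peptide bonds form, was at 9.89, 10.16, 10.09 and 9.73 in wild type and at 9.33, 9.30, 9.74, 9.55 and 9.38 in mdx PBS. Here mdx PBS 3 and wild type 4 met, so the groups overlapped by that 1 array, and the change was -0.51 (SE 0.11, adjusted p = 0.00064).

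Mrps18a carries the name of the small subunit but sits in the large one in mammalian structures. Its values were 10.85, 10.81, 11.09 and 10.72 in wild type and 10.31, 10.27, 10.45, 10.41 and 10.40 in mdx PBS. The groups were apart, with a change of -0.50 (SE 0.10, adjusted p = 0.00041). Mrpl51, which has no bacterial counterpart, was at 7.37, 7.30, 6.90 and 6.94 in wild type and at 6.85, 6.31, 6.79, 6.80 and 6.46 in mdx PBS. The gap between the groups was narrow, the change was -0.49 (SE 0.14, adjusted p = 0.0074), and its other 2 tested probes gave -0.54 and -0.46. Mrpl30 was at 11.82, 11.53, 11.73 and 11.31 in wild type and between 10.88 and 11.24 in mdx PBS, a change of -0.48 (SE 0.12). The other large-subunit members that fell were Mrpl54, Mrpl42, Mrpl18, Mrpl36, Mrpl50 and Mrpl23, with changes from -0.37 to -0.24. Of these, Mrpl23 belongs to a protein family that lines the exit of the tunnel through which new peptides leave.

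In the small subunit, 7 of 25 members fell and the median change was -0.13. Mrps15, a protein that binds the small-subunit RNA in bacteria, had the largest change of all members. Its values were 8.21, 8.33, 8.53 and 8.40 in wild type and 7.21, 7.78, 7.99, 7.92 and 7.50 in mdx PBS. Every mdx PBS array was below every wild-type array in spite of the wide spread in mdx PBS (SD 0.33, n = 5), and the change was -0.69 (SE 0.17, adjusted p = 0.0022). Mrps25, which has no bacterial counterpart, was at 7.75, 7.76, 7.93 and 7.82 in wild type and at 7.32, 7.44, 7.32, 7.33 and 7.33 in mdx PBS. Both groups were tight and apart, with a change of -0.47 (SE 0.09, adjusted p = 0.00018), and its other 2 tested probes gave -0.47 and -0.43. Mrps6 was at 8.84, 8.89, 9.17 and 8.90 in wild type and between 8.27 and 8.69 in mdx PBS, a change of -0.43 (SE 0.12). Mrps7, whose bacterial relative starts the folding of part of the small-subunit RNA, changed by -0.33 (SE 0.09, adjusted p = 0.0056). Mrps21, Mrps18b and Mrps26 changed by -0.33, -0.31 and -0.27 and passed the test as well.

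**Figure D2:**
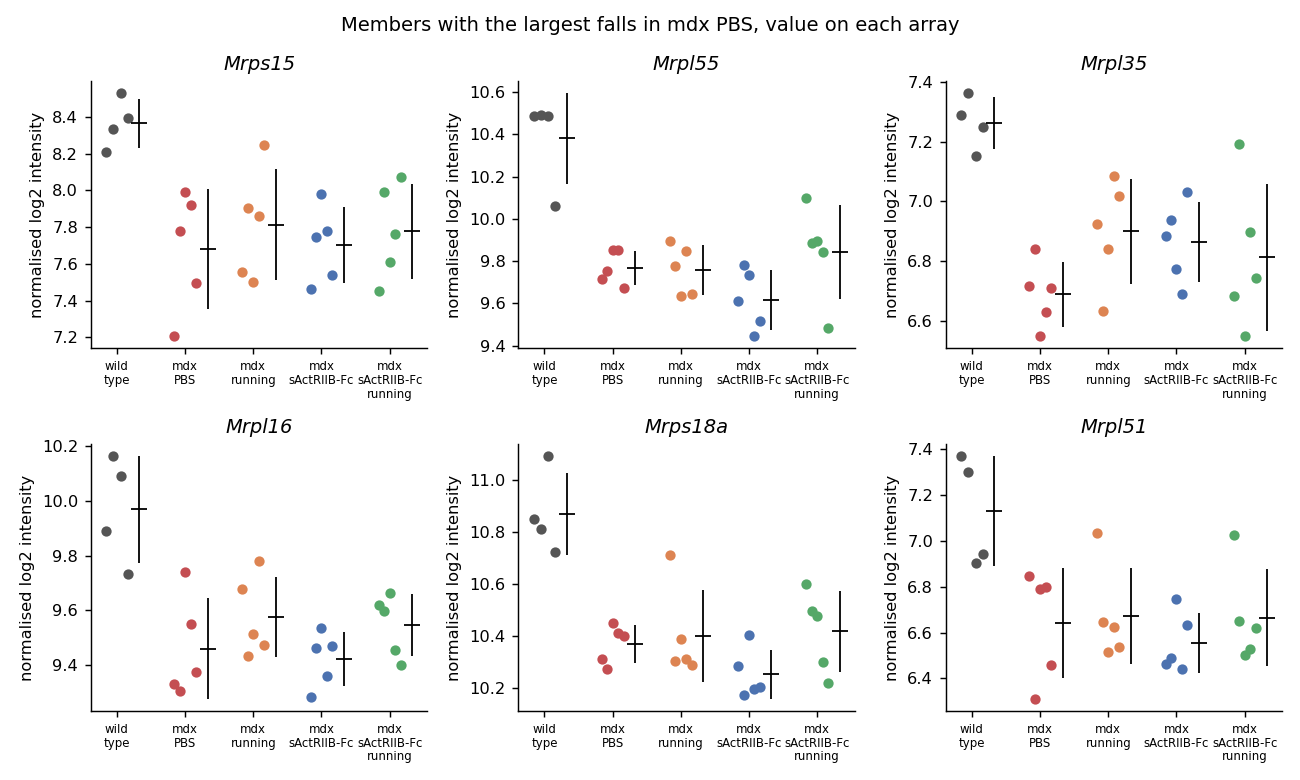
Normalised log2 intensity of the 6 members with the largest falls in mdx PBS, 1 point per array in each of the 5 groups (4 wild-type and 5 arrays in each mdx group), with the mean and SD at the right of each group. For Mrps15, Mrpl55, Mrpl35, Mrps18a and Mrpl51 every mdx PBS point lies below every wild-type point, and in the other mdx groups most points also lie below the wild-type ones.

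The members that did not pass included several with central roles. Mrpl12 forms the stalk of the large subunit and is also known to bind the mitochondrial RNA polymerase. It was at 11.93, 12.07, 12.19 and 11.73 in wild type and between 11.78 and 11.97 in mdx PBS, so the groups overlapped (change -0.08, SE 0.14, adjusted p = 0.67). Mrps30, a large-subunit protein in spite of its name, changed by -0.20 (SE 0.09, adjusted p = 0.088). Mrpl3, a core protein of the large subunit, had the highest change of all, 0.23 (SE 0.15, adjusted p = 0.23). Mrpl17 was at 11.46 to 11.58 in wild type and at 11.59 to 11.74 in mdx PBS, and its groups did not overlap although the change of 0.13 did not pass (adjusted p = 0.40). The probes of Mrpl33, Mrpl43 and Mrpl49 disagreed in sign. The brighter probe of Mrpl33 changed by 0.01 and its other probe by -0.08, and for Mrpl43 the probes gave 0.15 and -0.05. Mrpl49 gave -0.01 for the brightest of its 4 probes and between -0.25 and 0.03 for the others. Probe brightness depends on probe sequence, so the levels of different members were not set against each other. The Mrpl39 probe was at 5.18 to 5.64 in wild type and at 5.01 to 5.36 in mdx PBS, and its groups overlapped (change -0.21, SE 0.16, adjusted p = 0.31).

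By ancestry, 13 of the 43 members with a bacterial counterpart fell (median -0.22), and 6 of the 26 found only in mitochondrial ribosomes did (median -0.14). Neither split was tested. The wild-type and mdx PBS arrays did not overlap in 19 of the 69 members (27.5%), 16 of them among the called, where 32.4% of all tested genes did not overlap and 18.5% were called lower. Lack of overlap in either direction was thus no more frequent among the members than among all genes. For falls alone it was not counted over all genes. Wild type 4 by itself stood above all 5 mdx PBS arrays in 23 of the 69 members. The same count was not made over all tested genes, so it shows nothing particular to the members.

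The mean over the 69 members, taken relative to the wild-type mean, was 0.05, 0.04, 0.07 and -0.16 on the 4 wild-type arrays. It was -0.19, -0.22, -0.13, -0.16 and -0.30 in mdx PBS. Wild type 4, the wild-type array with the low liver-marker mean, therefore lay within the mdx PBS range. It was the lowest wild-type array for 46 of the 69 members, a count that was not made over all tested genes. With the liver-marker mean as a covariate, 15 of the 69 members were called lower, all of them among the 19. In that fit 18.2% of all genes were called lower, and the members' median was -0.11 against -0.06 for all genes. The 4 of the 19 no longer called are Mrpl36 (adjusted p = 0.083), Mrpl50 (0.24), Mrpl54 (0.15) and Mrps18b (0.053). Without the 4 arrays whose liver-marker mean was above 9, a choice made after seeing the data, 16 of the 19 were still called. There 17 of the 69 members and 16.7% of all genes were called lower. When only arrays with a mean below 8 were kept, wild type 4 was the lone wild-type array. The members' median was then -0.05 against -0.04 for all genes. Leaving out wild type 4 gave a median of -0.24.

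**Figure D3:**
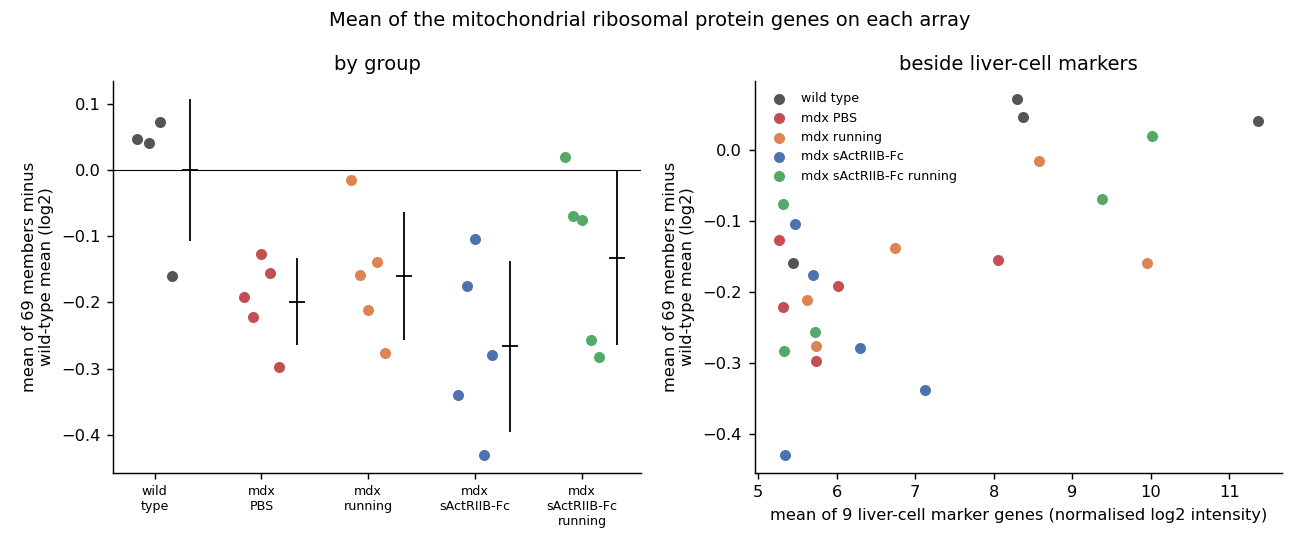
Mean log2 value of the 69 members on each array relative to the wild-type mean, by group with mean and SD (left; 4 wild-type and 5 arrays per mdx group) and against the mean of 9 liver-cell marker genes on the same array (right). Wild type 4 (-0.16) lies among the mdx arrays on the left and at the low end of the liver-marker axis on the right, and the 4 arrays above 9 on that axis have means from -0.16 to 0.04.

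The other 3 mdx groups were set against the same 4 wild-type arrays, so their differences share these controls and are given side by side. In mdx running, 0 members rose and 14 fell, where 17.8% and 16.9% of all genes did. In mdx sActRIIB-Fc, 0 rose and 26 fell, where 19.8% and 19.1% of all genes did. In mdx sActRIIB-Fc running, 1 rose and 16 fell, where 19.5% and 19.7% of all genes did. The members' medians were -0.15, -0.24 and -0.10, against -0.04, -0.04 and -0.06 for all tested genes. The share of members called lower was thus near the background in mdx running (20.3%) and in mdx sActRIIB-Fc running (23.2%), and higher in mdx sActRIIB-Fc (37.7%). These shares depend on the scaling. With arrays scaled to the medians of the probes detected on all arrays they were 44.9%, 34.8% and 63.8%, where 22%, 23.5% and 25.7% of all genes were called lower. With arrays scaled to equal medians they were 10.1%, 14.5% and 29%, where 7.72%, 10.4% and 10.2% of all genes were called lower. In mdx sActRIIB-Fc with the liver-marker mean as a covariate, 23 members and 18.2% of all genes were called lower. Without the 4 arrays whose liver-marker mean was above 9, 22 members and 16.6% of all genes were. With only arrays below 8, wild type 4 was the lone wild-type array. The members' median minus that of all genes was then -0.07 in mdx sActRIIB-Fc.

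In mdx sActRIIB-Fc, Mrpl55 was at 9.61, 9.78, 9.73, 9.44 and 9.52, all below the lowest wild-type array (change -0.76, SE 0.11, adjusted p = 1.1e-05). The same gene stood at 9.89, 9.78, 9.63, 9.85 and 9.64 in mdx running (change -0.62) and at 10.10, 9.89, 9.89, 9.84 and 9.49 in mdx sActRIIB-Fc running (change -0.54), where 1 array passed the lowest wild-type one. Mrps15 changed by -0.55, -0.66 and -0.59 in mdx running, mdx sActRIIB-Fc and mdx sActRIIB-Fc running. Mrps18a changed by -0.47, -0.62 and -0.45 in the same order, and Mrps25 by -0.36, -0.42 and -0.52. Members called in mdx sActRIIB-Fc and short of the threshold in mdx PBS included Mrps28 (change -0.54, SE 0.14, adjusted p = 0.0040), Mrpl34 (-0.54, SE 0.14, adjusted p = 0.0035) and Mrps11 (-0.50, SE 0.12, adjusted p = 0.0015). Mrps24, which belongs to a family that forms part of the channel where the message enters, was among them too (-0.40, SE 0.13, adjusted p = 0.015). A call in 1 group and not in the other is no test of their difference. Set directly against mdx PBS, mdx sActRIIB-Fc differed by -0.24 for Mrps28, -0.23 for Mrpl34, -0.22 for Mrps11 and -0.28 for Mrps24, and none of these passed (adjusted p = 1.00 for each).

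The single member that rose was Mrpl3, in mdx sActRIIB-Fc running. It was at 10.63, 10.26, 10.53, 10.09 and 9.81 there and at 9.94, 9.82, 9.97 and 9.70 in wild type. The groups overlapped, with the highest array of the first having a liver-marker mean of 10.02, and the change was 0.41 (SE 0.15, adjusted p = 0.033). Under 12 of 23 other settings it did not pass.

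**Figure D4:**
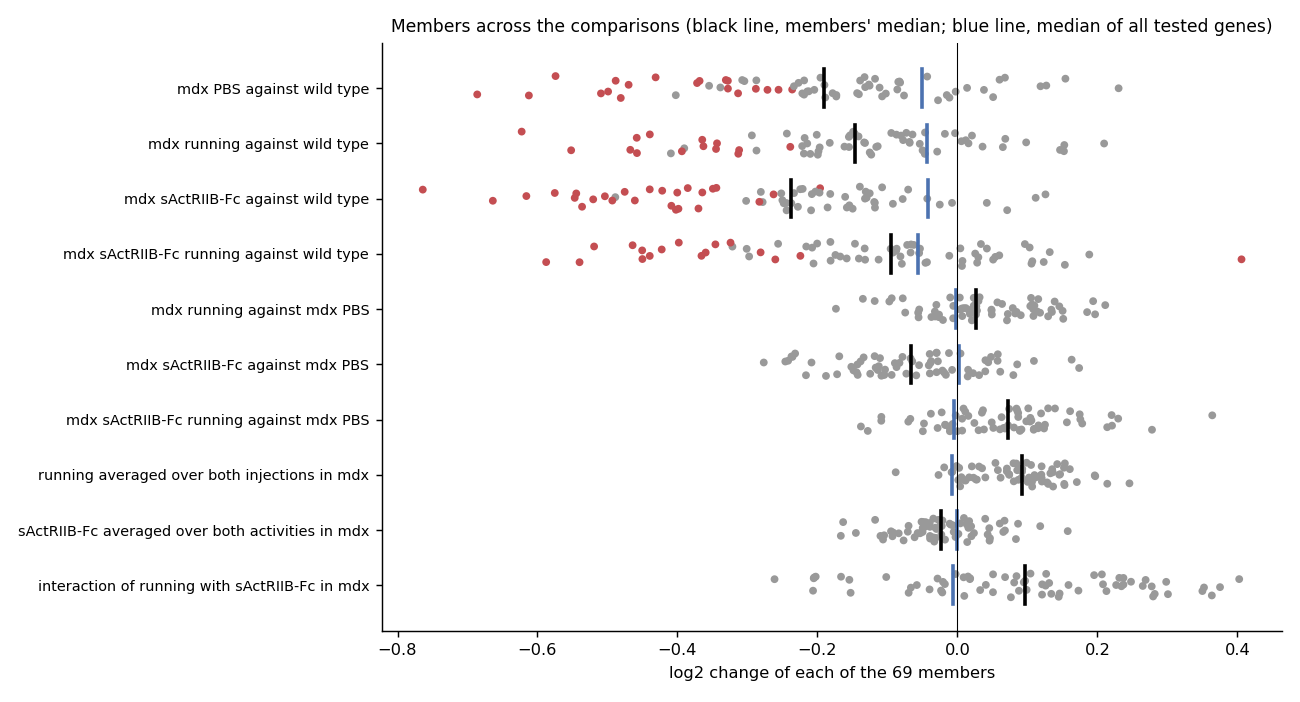
Log2 change of each of the 69 members (points; red where the adjusted p is below 0.05) in all 10 comparisons, with the members' median as a black line and that of all 8945 tested genes as a blue line; points are spread vertically for visibility. In the 4 comparisons with wild type the members' medians run from -0.24 to -0.10, and in the 6 comparisons within mdx mice no point is red.

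Within mdx mice, no member passed the test for running, for sActRIIB-Fc, for both, or for their interaction. Nearly no gene of the whole array did: 0.0112% of all genes (1 gene) were called for running against PBS and for running averaged over both injections, and 0% in each of the other 4 comparisons. The comparisons with mdx PBS share its 5 arrays. For running against PBS the members' median was 0.03, with 49 of 69 positive and 1 at an unadjusted p below 0.05. For sActRIIB-Fc against PBS the median was -0.07, with 52 of 69 negative and 3 below that p. For sActRIIB-Fc running against PBS it was 0.07, with 51 of 69 positive and 0 below it. Of all 8945 tested genes, 297, 285 and 523 were below that p, in the same order.

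The members with the lowest p in each comparison show how small the differences were. Mrps23, a mitochondria-specific small-subunit protein, was at 10.10, 10.13, 10.26, 10.24 and 10.12 in mdx PBS and at 10.28, 10.28, 10.20, 10.42 and 10.65 in mdx running. The groups overlapped by 1 array, and the change was 0.20 (95% interval 0.003 to 0.39, unadjusted p = 0.047, adjusted p = 1.00). Mrpl35 (0.21), Mrps7 (0.15) and Mrpl30 (0.19) followed. Mrps24 was at 13.00, 13.11, 13.21, 13.14 and 12.87 in mdx PBS and at 12.63, 12.86, 13.18, 12.53 and 12.77 in mdx sActRIIB-Fc. Here mdx sActRIIB-Fc 3 lay among the PBS arrays, and the change was -0.28 (95% interval -0.53 to -0.03, unadjusted p = 0.031, adjusted p = 1.00). Mrpl17 (-0.25), Mrpl46 (-0.21) and Mrps11 (-0.22) came next. For sActRIIB-Fc with running against PBS, Mrpl22 had the lowest p. It was at 10.51, 9.87, 9.53, 8.88 and 9.04 in mdx sActRIIB-Fc running and at 9.30, 9.14, 9.40, 9.32 and 8.85 in mdx PBS. Its 2 highest arrays are those with liver-marker means of 10.02 and 9.38, and its change of 0.36 (SE 0.22, adjusted p = 0.87) was -0.05 without the 4 arrays above 9. Mrps30 (0.13), Mrpl23 (0.10) and Mrps18c (0.28) followed.

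Averaged over both injections, running was associated with a median change of 0.09 over the members, against -0.01 for all tested genes, and 63 of 69 members had a positive change. By subunit, 42 of 44 large and 21 of 25 small members were positive. None passed, and 5 had an unadjusted p below 0.05: Mrps30 (0.15, SE 0.06), Mrps11 (0.20, SE 0.08), Mrps26 (0.12, SE 0.05), Mrps7 (0.14, SE 0.06) and Mrps28 (0.20, SE 0.09), with adjusted p from 0.65 to 0.75. Over all 8945 tested genes, 599 had an unadjusted p below 0.05, a share near that of the members. Mrps30 was at 11.00, 10.84, 10.94, 10.98 and 11.10 in mdx running and at 11.03, 10.96, 11.09, 11.01 and 10.88 in mdx sActRIIB-Fc running. Without running it was at 10.81, 10.91, 11.06, 10.83 and 10.71 in mdx PBS and at 10.74, 10.99, 10.94, 10.65 and 10.66 in mdx sActRIIB-Fc. The running and non-running arrays overlapped for this and every other member.

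All 9 tested liver-cell markers had a positive change with running as well, with a median of 1.33, and 3 of the 4 arrays above 9 were from running mice. With the liver-marker mean as a covariate the members' median for running was 0.04 with 52 of 69 positive. Without the 4 arrays above 9 it was 0.05 with 51 of 69 positive. With only the arrays below 8, which number 4, 3, 5 and 3 in the mdx groups, it was 0.02. The size of the running median therefore moved by more than 1.5 times with these arrays.

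For sActRIIB-Fc averaged over both activities, the median was -0.02 and 45 of 69 were negative. Mrps26 (-0.11, SE 0.05, unadjusted p = 0.043, adjusted p = 1.00) was the only member below an unadjusted p of 0.05. Of all 8945 tested genes, 282 were below it. Among the members, Mrpl46 (-0.15), Mrpl4 (-0.17) and Mrpl18 (-0.12) came next. For the interaction, the difference between the effects of running with and without sActRIIB-Fc, the median was 0.10, with 50 of 69 positive and 2 members below that p. These were Mrpl17 (0.35, SE 0.15) and Mrps24 (0.36, SE 0.17), both with an adjusted p of 0.93. Over all 8945 tested genes, 356 were below an unadjusted p of 0.05 for the interaction. Mrpl17 was at 11.39, 11.57, 11.64, 11.16 and 11.25 in mdx sActRIIB-Fc and at 11.45, 11.50, 11.82, 11.61 and 11.53 in mdx sActRIIB-Fc running. In mdx running it was at 11.68, 11.45, 11.63, 11.54 and 11.08, against 11.59 to 11.74 in mdx PBS, so the arrays with running overlapped those without in both settings. Mrps34 (0.27) and Mrpl34 (0.35) had the next lowest p.

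The genes that work with the mitochondrial ribosome were read against wild type and for running. In mdx PBS against wild type, where 18.5% of all genes were called lower, 3 of 10 tested translation factors fell and none rose (median -0.23). These were Gfm2 (-0.48, SE 0.12) and Mrrf (-0.30, SE 0.09), which recycle ribosomes after termination, and Mtrf1 (-0.49, SE 0.11), a member of the release factor family. Of 18 tested assembly and rRNA modification genes, 4 fell (22.2%, near that share; median -0.13): the GTPases Mtg1 (-0.54) and Mtg2 (-0.32), the RNA helicase Ddx28 (-0.41) and Rmnd1 (-0.24). Of 16 tested mitochondrial aminoacyl-tRNA synthetases and related enzymes, which charge tRNAs, 5 fell (median -0.18). They were Gatb (-0.64), Rars2 (-0.45), Ears2 (-0.36), Mars2 (-0.34) and Fars2 (-0.24). Of 18 tested genes of mitochondrial transcription and RNA, 6 fell (median -0.24). Among them were Tfam (-0.28) and Tfb2m (-0.44), which start transcription of mitochondrial DNA, and Esrra (-0.40), a nuclear receptor that drives oxidative genes. The other 3 were Lrpprc (-0.40), Polg2 (-0.36) and Twnk (-0.53). The 3 tested ribosomal subunits with other names, Dap3 among them (0.03), did not pass.

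As comparison lists, 7 of 33 subunits of respiratory complex I fell (21.2%, near the 18.5% of all genes) and none rose (median -0.19), and 2 of 51 cytosolic ribosomal proteins rose and 2 fell (median 0.01). For running averaged over both injections, 31 of 33 complex I subunits were positive with a median of 0.11, and 26 of 51 cytosolic ribosomal proteins with a median of 0.004. Of all tested genes, 46.9% were positive. The medians of these lists were not recomputed with the liver-marker mean as a covariate or without the arrays above 9. For running, the translation factors had a median of 0.03 (8 of 10 positive), the assembly genes 0.02 (12 of 18), the aminoacyl-tRNA synthetases 0.002 (8 of 16) and the transcription and RNA genes -0.01 (7 of 18). None of the genes on these lists passed for running. Whether the mitochondrial ribosomal proteins differ from either list was not tested.

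**Figure D5:**
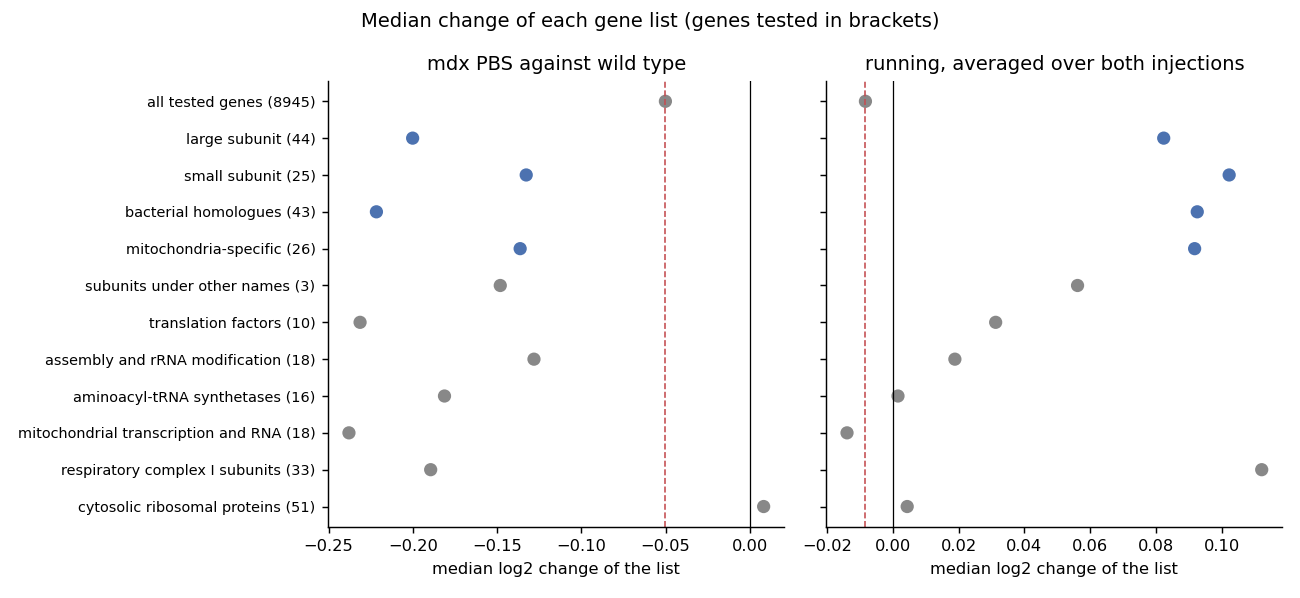
Median log2 change of each gene list in mdx PBS against wild type (left) and for running averaged over both injections (right), with the number of tested genes in brackets; blue points are subdivisions of the mitochondrial ribosomal proteins and the dashed line is the median of all tested genes. On the left the large and small subunits stand at -0.20 and -0.13 and the cytosolic ribosomal proteins at 0.01; on the right the subunits stand at 0.08 and 0.10.

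The promoters of the members were read because many of these genes moved in 1 direction. RefSeq promoters of build GRCm38.p6, 250 bases before to 50 after the start, were given for 67 of the 76 members. CCGGAAG, a core motif of the ETS factors that include GABPA, was present on either strand in 38.8% of them, in 19.3% of the 7265 tested genes with a promoter and in 9.93% of all 27025 genes in the table. AAGATGGCG, the motif of YY1, was in 11.9% of members, 3.55% of tested genes and 1.64% of all genes. CGCATGCG, the core of the NRF1 motif, was in 10.4%, 4.13% and 2.07%. CCAAT was in 38.8%, 43.1% and 41.1%, and the ERR motif TCAAGGTCA was in no member, 0.344% of tested genes and 0.466% of all genes. Among the members called lower in mdx PBS, 6 of 18 had the ETS motif and 4 of 18 the YY1 motif, and among the other tested members 19 of 44 and 4 of 44 did. A match is a description of letters and not a binding site.

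The 250 bases before the start of 3 called members are printed 5′ to 3′ to show an ETS motif, a YY1 motif and a promoter with neither, with the motif letters in capitals. Mrps18a (chr17:46110754-46111003, plus strand) holds the ETS motif beginning 26 bases before the start and CCAAT 196 bases before it. Mrpl36 (chr13:73330759-73331008, plus strand) holds the YY1 motif on the opposite strand 31 bases before the start and CCAAT 247 bases before it. Mrps25 (chr6:92184024-92184273, minus strand) holds only CCAAT, on the opposite strand, 127 bases before the start.
Mrps18a: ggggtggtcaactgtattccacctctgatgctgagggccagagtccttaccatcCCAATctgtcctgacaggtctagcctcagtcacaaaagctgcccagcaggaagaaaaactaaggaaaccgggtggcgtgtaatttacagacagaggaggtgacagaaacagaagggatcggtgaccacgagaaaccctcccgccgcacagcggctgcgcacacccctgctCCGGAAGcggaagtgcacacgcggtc
Mrpl36: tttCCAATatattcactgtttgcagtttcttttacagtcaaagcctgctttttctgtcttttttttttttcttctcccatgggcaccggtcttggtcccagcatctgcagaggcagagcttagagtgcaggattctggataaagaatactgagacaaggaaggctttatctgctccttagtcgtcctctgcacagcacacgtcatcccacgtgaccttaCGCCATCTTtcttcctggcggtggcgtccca
Mrps25: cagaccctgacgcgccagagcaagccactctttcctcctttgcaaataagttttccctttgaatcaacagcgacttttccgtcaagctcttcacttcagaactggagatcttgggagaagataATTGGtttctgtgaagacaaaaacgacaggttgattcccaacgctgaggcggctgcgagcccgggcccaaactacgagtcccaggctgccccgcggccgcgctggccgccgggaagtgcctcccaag

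Another feature that the choice by name did not use was a start site facing away from that of a neighbour. Of the 67 members with a promoter, 25 (37.3%) had the start of a gene on the opposite strand within 1000 bases, head to head, against 18.5% of tested genes and 12.2% of all genes in the table. Since Mrpl46 and Mrps11 face each other, these make 24 distinct pairs, and both genes were tested in 14. The 13 tested neighbours that are not members themselves had a median change of -0.09 in mdx PBS, with 5 called lower and 1 called higher. Of all tested genes, 18.5% were called lower and 19.3% higher. In the 3 pairs whose member was called lower, no neighbour was, but 3 pairs are too few to set against these shares. Mrpl51 (-0.49) lay beside Ncapd2, a condensin subunit, which rose by 0.36 (SE 0.14, adjusted p = 0.039). Mrpl18 (-0.33) faced Tcp1, a subunit of the cytosolic chaperonin (-0.08, adjusted p = 0.62), and Mrps7 (-0.33) faced Gga3 (0.16, adjusted p = 0.43). Among the other pairs, Mrpl43 (0.15) faced Twnk, the mitochondrial DNA helicase, which fell (-0.53, SE 0.19). Mrps5 (-0.13, adjusted p = 0.27) faced Zfp661 (-0.57, adjusted p = 0.0010). Mrpl46 and Mrps11, which face each other with starts 42 bases apart, changed by -0.04 (adjusted p = 0.78) and -0.29 (adjusted p = 0.057).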

How the data were processed

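Per the labels' protocols, RNA was extracted with Trizol, treated with DNase, amplified to biotin-labelled cRNA with a TotalPrep kit and hybridised to Illumina mouse BeadChips. The deposited table gives, per the file headers, an intensity and a detection p-value for each probe and array. All 25697 probes had intensities above 0, with no background subtraction named, and the scanner software is not given in the sources used here. The authors' value table holds log2 quantile-normalized intensities without background correction: they lie within 0.005 of that transform of the deposited intensities, and it was used as a check only. No column was left unused (0). The number of arrays limits the precision.

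Intensities were corrected with normexp from the detection p-values (offset 16), quantile-normalized and put on the log2 scale with limma 3.58.1 in R 4.3.3. A probe was kept with a detection p below 0.05 on at least 4 arrays, and each gene was represented by its brightest kept probe. Gene symbols come from GEO's platform annotation, in which 23978 probes have 1 symbol and 1719 none, and all 76 members matched RefSeq by gene ID. A single linear model with 5 group means, moderated by eBayes, was fitted to the 8945 genes, and p-values were adjusted by Benjamini-Hochberg over all of them, with calls at 0.05. The code was tested on simulated data. Intervals are at the 95% level.

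The members and lists were chosen with earlier results of these data known. Named were up to 12 called members in each direction in mdx PBS against wild type, up to 8 elsewhere or the 4 of lowest p where fewer than 3 passed, the members of highest and lowest level, those with probes of opposite sign or none detected, and Mrps36, Mrps30, Mrps18a and Mrpl12. The 7 further called members of mdx PBS, Mrpl17, the head-to-head pairs, the printed promoters and the remaining examples were chosen after their values were seen. Alternatives covered background correction, scaling, the detection filter, probe choice, the samples fitted, the prior, replicate numbers, liver markers, raw brightness and each array left out.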

Additional observations from a re-analysis of the deposited data

Results flagged for a closer look

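For the 32 members named by rule and the mean over all members, each of the 5 groups was searched for an array whose gap to the nearest other array took up most of the group's range. Chance alone gives about 1 in 20 groups, and 11 of 165 were found. On wild type 4, the wild-type array with the low liver-marker mean, 4 values stood low. Mrpl55 was at 10.06 there, with the other wild-type arrays at 10.49. Mrpl22 was at 9.01, with the others between 9.69 and 9.74, and Mrpl33 was at 12.15, with the others between 12.64 and 12.72. The mean over the members was at 10.03, with the others between 10.23 and 10.26.

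On mdx running 1, Mrps18a was high at 10.71 (others 10.29 to 10.39) and Mrpl51 was high at 7.03 (others 6.51 to 6.65). Mrpl51 was also high at 7.03 on mdx sActRIIB-Fc running 1 (others 6.504 to 6.65). On mdx running 5, Mrpl18 was low at 9.21 (others 9.45 to 9.503). In mdx PBS, Mrps25 was high at 7.44 on array 2 (others 7.32 to 7.33), Mrps7 low at 10.53 on array 4 (others 10.60 to 10.63) and Mrpl46 high at 10.89 on array 3 (others 10.70 to 10.73). What sets these arrays apart was not tested.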

How the results depend on the processing

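Counts of called members moved most with scaling and with the arrays of high liver-marker mean. With arrays scaled to equal medians, 12 members were called in mdx PBS against wild type, 7 in mdx running and 11 in mdx sActRIIB-Fc running. Scaling to the median of the probes detected on all arrays, added after seeing the data, gave 33, 31 and, in mdx sActRIIB-Fc, 44. These scalings put the median of all genes in mdx PBS at 0.07 and -0.11, against -0.05 as reported. They differ from each other only by a constant for each array. The members' median relative to that of all genes is therefore bound to be equal under both, at -0.24 against -0.14 as reported. Fitting only the compared groups called 11 in mdx sActRIIB-Fc running, all lower, where 12.7% of all genes were called lower. Both sets of arrays that follow were chosen after seeing the data. Without the 4 arrays above 9, 8 were called in mdx running, all lower, where 13.1% of all genes were called lower. Keeping only arrays below 8 leaves 1 wild-type array assumed to vary like the other groups, and fewer arrays were fitted. The members' median minus that of all genes was then -0.012, -0.013, -0.068 and 0.0065 in mdx PBS, mdx running, mdx sActRIIB-Fc and mdx sActRIIB-Fc running. Leaving out each array in turn gave 14 to 20, 11 to 15, 22 to 29 and 13 to 17 called members in the same order. It gave 0 in every comparison within mdx mice, as did all other settings. The cause of these shifts was not tested.

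Among named members, signs turned for 4 whose changes had not passed. Mrpl33 in mdx PBS (0.01) was at -0.11 with equal medians, -0.29 with detected-probe medians, -0.033 with the mean of its probes, -0.17 with raw brightness as a covariate, and -0.12 to 0.073 with each array left out in turn (negative without wild type 4 or mdx PBS 1, 3 or 4). Mrpl49 (-0.01) was at 0.14 with equal medians, 0.028 with the replicate block, 0.10 with the liver-marker covariate, 0.14 with arrays below 8, and -0.057 to 0.031 with each array left out (positive without wild type 1 or 3 or mdx PBS 4 or 5). Mrpl12 (-0.08) was at 0.036 with that covariate and 0.14 with arrays below 8. Mrpl22 in mdx sActRIIB-Fc running against mdx PBS (0.36) was at -0.053 without the 4 arrays above 9 and -0.024 with arrays below 8. Of 1662 values of named members under all settings, 1570 kept direction and side of the threshold, 70 lost the call and 2 gained it. The 1570 include values from the comparisons within mdx mice, where there was no call to lose. Mrpl54 in mdx PBS lost its call in 9 of 23 settings.

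With the replicate number as a block, 21 members were called in mdx PBS, against 19. The share of all genes called lower rose as well, from 18.5% to 21.1%. The members' median minus that of all genes was -0.12, against -0.14 as reported. Same-numbered arrays had deviations correlated above 0.1 in 25 of 46 pairs. The median correlation was 0.12 for the same number and -0.05 for different numbers, and 11 of 24 arrays correlated best with their own number. Raw median signal tended to fall with the number, as from 90.55 on wild type 1 to 72.32 on wild type 4. The labels do not say what the numbers stand for, and the main model leaves them out. Whether they mark a batch was not tested. The slide as a block was not run, since the headers used here name no slide. Detected probes limit what can be said of Mrpl39 and Mrpl57, each detected on 9 arrays.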
